A study of Homo sapiens with 12 samples.

Results

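The regions described here were the stretches of RNA in which an m6A peak was called in all 6 immunoprecipitated libraries of the study. They were chosen by the calls themselves. Peaks of the 6 lists were joined into a region where their exon blocks overlapped by at least 1 nucleotide (nt) on the same strand, and a region was kept if every list gave it at least 1 peak. This left 2759 of 21675 regions, or 12.7%. N6-methyladenosine (m6A) had been mapped by MeRIP-seq, the sequencing of RNA fragments that an m6A antibody has enriched, in 143B cells, an established human osteosarcoma line. The cells carried siRNAs against ALKBH5 in 3 libraries and scrambled siRNA in the other 3, with a harvest at 48 h for all. The matching 6 inputs were not used here. Each replicate number also marked a protocol. Replicate 1 used polyadenylated RNA and a rabbit antibody of Synaptic Systems, replicate 3 used polyadenylated RNA and a Millipore antibody, and replicate 2 used total RNA with the Magna MeRIP kit and a further antibody. For replicates 2 and 3 the antibody is taken from the protocol description, since the antibody field names that of replicate 1 for all immunoprecipitates. Nothing in the labels says that the replicates were separate cultures, so a p-value measures only the spread between these libraries. Differences between replicate numbers and between protocols cannot be told apart.

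m6A is deposited on nascent RNA by a complex built around METTL3 and METTL14 with WTAP, VIRMA, ZC3H13 and RBM15 as regulatory subunits. ALKBH5 and FTO remove it, and the YTH-domain and IGF2BP proteins bind it and alter the stability or translation of the transcript. In mammalian mRNA the mark lies mostly in long internal exons, around stop codons and in 3′ untranslated regions, at short motifs of which GGAC is the most often described. A MeRIP-seq peak marks the neighbourhood of 1 or more methylated adenosines and does not resolve the modified base.

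The sequence of a whole region was not printed, because the regions lie on the hg19 build and no genome of that build was used here. The exceptions were 3 microRNA hairpins that carried their own gene number inside a region called in all 6 libraries. They are shown because the listed peak was as long as the hairpin itself in 5 of 6 cases, so the printed letters stand for a complete deposited peak. The hairpin sequences are those of RefSeq (GRCh38.p14), written 5′ to 3′ in lower case, with each GGAC in capitals. GGAC was searched on the RNA strand only.

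MIR4751: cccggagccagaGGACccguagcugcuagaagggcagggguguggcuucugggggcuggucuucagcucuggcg
MIR922: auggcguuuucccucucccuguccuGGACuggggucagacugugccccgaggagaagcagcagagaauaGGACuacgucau
MIR671: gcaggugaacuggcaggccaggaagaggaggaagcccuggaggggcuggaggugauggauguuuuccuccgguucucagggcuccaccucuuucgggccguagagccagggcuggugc

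MIR4751 lies within ATF5, which encodes a transcription factor of the stress response. Its 74 nt peak was listed in scrambled replicate 3 only, at chr19:50436321-50436394 of hg19 on the plus strand, and the hairpin is also 74 nt and holds 1 GGAC. MIR922 lies within RUBCN, which encodes the autophagy regulator rubicon. Its 81 nt peak had the same ends in both libraries of replicate 3, at chr3:197401367-197401447 on the minus strand, and the 81 nt hairpin holds 2 GGAC. MIR671 lies within CHPF2, a chondroitin sulfate synthase gene, and was listed with 118 nt in both libraries of replicate 3 and with 60 nt in knockdown replicate 1. Its 118 nt hairpin holds 0 GGAC. Among 1562 RefSeq hairpins, 427 hold the motif, or 27.3%. In 5 of the 6 lines every base of the hairpin peak was also in a peak of the host gene from the same list, and in the sixth 50 of 60 nt were.

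The regions called in all 6 libraries were the longest class. Median exon length, the summed length of all exon blocks of a region, was 120 nt for the 6271 regions called in 1 library. It was 239 nt for 3702 regions in 2 libraries, 360 nt for 2983 in 3, 566 nt for 4082 in 4, 660 nt for 1878 in 5 and 900 nt for the 2759 in all 6. Length grows by construction when more lists contribute peaks, so this order was not tested. The share of regions with more than 1 exon block went from 17.1% in 1 library to 42.8% in all 6. Just outside the rule, in the regions missing a single list, that list was scrambled replicate 2 in 882 regions and knockdown replicate 2 in 854. Scrambled replicate 1 was missing in 137, and each of the other 3 lists in at most 2. Membership was therefore set mainly by replicate 2, whose lists had 5670 and 5908 peaks against 15113 to 18707 in the others. Without replicate 2 altogether, 8193 regions were called in the remaining 4 libraries. The lists hold no read counts, so depth is unknown and its part in this was not tested.

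**Figure D1:**
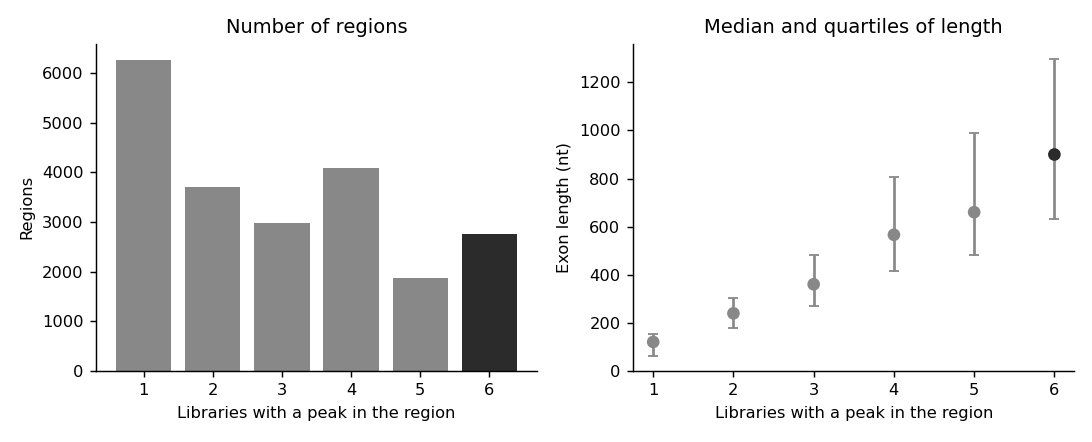
Regions by the number of libraries (of 6) with a peak in them. The left panel gives the number of regions, and the right panel their exon length in nt, with points at the median and bars from the lower to the upper quartile. The black bar and point are the 2759 regions called in all 6 libraries, with a median of 900 nt.

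These 2759 regions held 29.1% of the exon length of all regions (2923 of 10041 kb), against 12.7% of their number. Their length ran from 180 to 8519 nt, with quartiles of 630 and 1298 nt. A single exon block made up 1578 of them (57.2%), 844 had 2 blocks, 337 had 3 or more, and the most was 8. The plus strand carried 1438 and the minus strand 1321, and regions facing each other on opposite strands were counted separately. At least 1 peak crossed an exon junction in 1193 regions, and the same junction was crossed in all 6 lists in 49.

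A call in all 6 lists did not mean the same bases in all 6. In 2581 regions (93.5%) at least 1 nt was covered by every list. The bases common to all 6, summed per region, had a median of 151 nt (quartiles 91 and 241 nt, largest 1471 nt). They may lie in separate pieces, so this is not the length of a single stretch. The protocol of replicates 1 and 3 gives RNA fragments of 100 to 200 nt. Summed over the regions, the common bases were 17.2% of the exon length. In 178 regions no base was shared by all 6 lists. No region had identical exon blocks in all 6 lists, and identical blocks within a same-numbered pair were found in 31 regions for replicate 1, 112 for replicate 2 and 133 for replicate 3. The base overlap of knockdown and scrambled peaks (shared bases over all bases, averaged over regions) was 0.642 for replicate 1, 0.547 for replicate 2 and 0.852 for replicate 3. Libraries of the same siRNA but different number averaged 0.469 ± 0.168 (SD over 6 library pairs), and libraries that shared neither averaged 0.464 ± 0.167 (SD over 6 library pairs). These averages were close. Their spread includes the differences between combinations of replicate numbers, which occur alike in both kinds, so it does not measure the error of this contrast. For replicates 2 and 3, overlaps were 0.337 and 0.326 with the same siRNA and 0.354 and 0.311 without. For replicates 1 and 3 they were 0.760 and 0.575 against 0.756 and 0.559, and for 1 and 2, 0.393 and 0.424 against 0.368 and 0.438. These values share libraries and were not tested.

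Within genes with 3 or more regions, of which there were 2588, the 1214 regions called in all 6 libraries were the first in transcript direction in 23.9%, lay between others in 48.6% and were the last in 27.5%. The 8921 other regions of these genes gave 25.8%, 49.0% and 25.3%. These positions are relative to other regions only, since no hg19 gene models were used here and exons, introns and untranslated regions could not be assigned. By chromosome, 19.6% of the regions on chromosomes 20 and 21 were called in all 6 libraries, the highest shares, and 6.89% on X was the lowest share apart from Y and the mitochondrial genome, where 0 of 3 regions in all were members.

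The length covered differed between the replicate numbers. In knockdown replicates 1, 2 and 3 the median length covered was 689, 240 and 835 nt. The scrambled libraries, in the same order, gave 480, 212 and 779 nt. Replicate 2 gave the shortest cover in 2587 regions (93.8%), and the order of replicate 3 over 1 over 2 was seen in 2256 regions with scrambled siRNA and in 2191 with ALKBH5 siRNA. Outside these regions the same lists had medians of 121 to 300 nt, below the member median of each list. Regions called in all 6 libraries held 71.0% and 72.8% of the peaks of the replicate 2 lists, and 18.5% to 31.6% of the peaks of the other lists. They also ranked high within each list. Their best peak had a median score percentile (percent of the list's peaks with a worse score) of 67.5 to 87.8, against 31.7 to 46.4 in other regions. The rule itself required a call in every list, and taking the best of several peaks raises the percentile. This difference was therefore not tested.

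**Figure D2:**
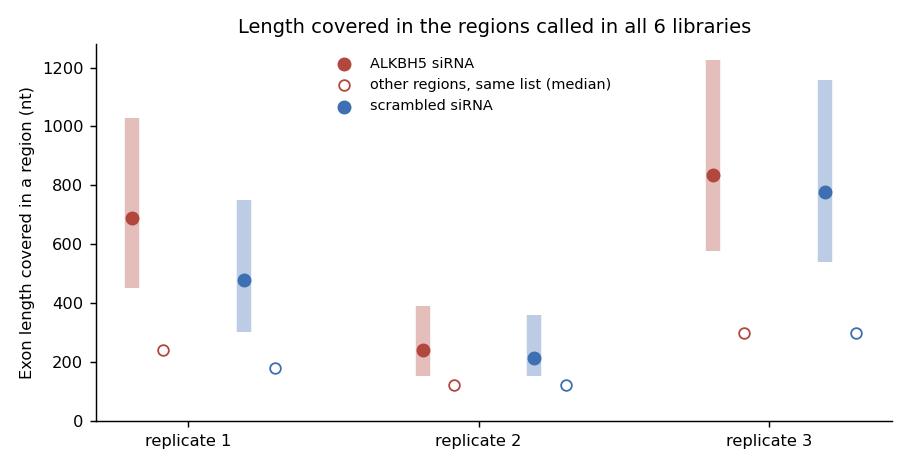
Exon length covered, in nt, in the 2759 regions called in all 6 libraries, by replicate number and siRNA. Filled points are medians over regions, bars run from the lower to the upper quartile, and open points are the medians of the other regions of the same list. Replicate 2 lies lowest at 240 and 212 nt.

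Over libraries, the groups overlapped in every summary of these regions. The mean of log2 summed peak length was 9.11 ± 0.96 (SD, n = 3) after ALKBH5 siRNA and 8.86 ± 0.92 (SD, n = 3) after scrambled siRNA. The difference of 0.25 had a two-sided p of 0.7 by exact permutation, which with 3 libraries a side gives at least 0.1. The length covered was 1940 ± 958 kb (SD, n = 3) against 1646 ± 898 kb (SD, n = 3), a difference of 294 kb with an exact permutation p of 0.7. Peaks in these regions numbered 3902 ± 444 (SD, n = 3) against 4157 ± 599 (SD, n = 3), with an exact permutation p of 0.5. None of the 3 differences was larger than the spread between libraries. Within the same-numbered pairs the knockdown mean log2 length was higher by 0.57, 0.12 and 0.08 for replicates 1, 2 and 3, and the covered length by 648, 94.8 and 139 kb. All 3 pairs went the same way for both measures, and flipping the signs of the paired differences (exact two-sided test) gave p = 0.25, the smallest it can give with 3 pairs. For peak numbers the pairs gave -653, 68 and -182 (exact sign-flip p = 0.5).

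Region by region, knockdown peaks were longer than scrambled peaks most often in replicate 1. There, 2465 of the 2759 regions (89.3%) were longer in the knockdown and 224 (8.12%) shorter, where 78.1% and 17.4% of all 9029 regions called in both libraries were. In replicate 2, 51.1% were longer and 40.2% shorter, where the shares of all 2946 regions called in both libraries were 51.1% and 39.9%. In replicate 3, 59.2% were longer and 31.0% shorter, against 47.1% and 43.4% of all 13413. In replicate 2 the members' shares are close to this background, of which they make up nearly all. In replicate 3 the regions outside the rule leaned slightly the other way, with 44.0% of 10654 longer and 46.6% shorter. The median ratio in the members was 1.37 in replicate 1 and 1.04 in replicates 2 and 3. More than 2-fold differences in covered length occurred in 449, 589 and 22 of the 2759 members. Over all regions called in both libraries they occurred in 2245 of 9029, 620 of 2946 and 1322 of 13413. Within the members, replicate 2 thus scattered widely in both directions and replicate 3 little. Outside the rule, replicate 3 had 1300 of 10654 regions beyond 2-fold.

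**Figure D3:**
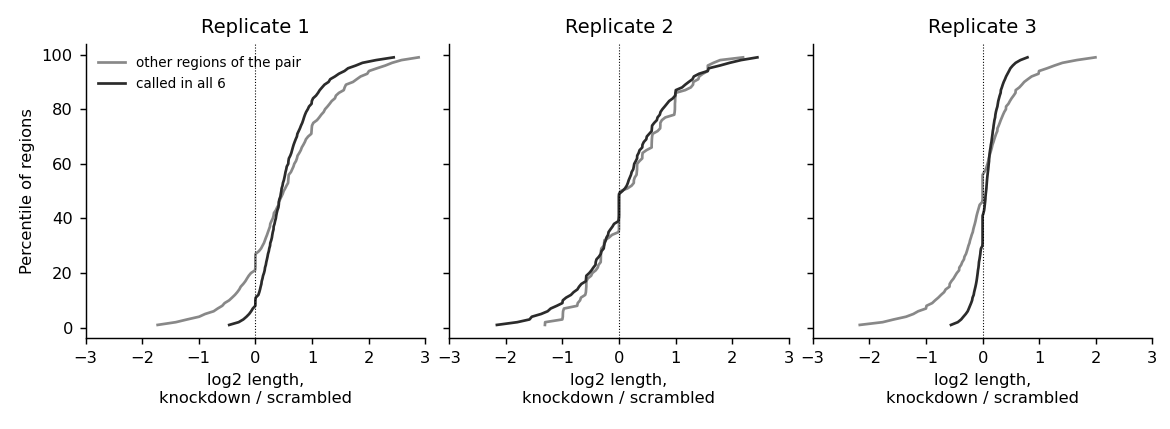
Percentiles of the log2 ratio of summed peak length, knockdown over scrambled, in each same-numbered pair. Black lines are the 2759 regions called in all 6 libraries and grey lines the other regions called in both libraries of the pair, and the dotted line marks equal length. The black line lies mostly right of 0 in replicate 1, where 89.3% of the regions were longer in the knockdown, and crosses near 0 in replicates 2 and 3.

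In replicate 1 the extra length often lay on both sides of the scrambled peak. Of the 1080 regions with a single overlapping 1-block peak in both libraries, 595 (55.1%) had a knockdown peak that reached further at both ends. It reached further only at the 5′ end in 146, only at the 3′ end in 261 and at neither end in 78. The median extension was 59 nt at the 5′ end and 60 nt at the 3′ end, with means of 62.5 and 78.8 nt. Replicates 2 and 3 had median extensions of 0 nt at both ends over 1449 and 1245 such regions. Knockdown replicate 1 also had fewer peaks than scrambled replicate 1 in 677 regions and more in 272. The same number was listed in the remaining 1810. Within replicate 1 the shift was present in all 4 length classes of about 690 regions each. In the shortest class 83.9% were longer and in the longest 93.8%. The median ratio of covered length was 1.41 in the shortest class and 1.33 in the longest.

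Knockdown peaks were longer in all 3 pairs in 874 of the 2759 regions (31.7%) and shorter in all 3 in 52 (1.88%), leaving 1833 with mixed or equal lengths. These counts carry the shift of replicate 1, since only 224 regions could be shorter in every pair. With each pair's ratios centred on the median of all regions called in both of its libraries, the counts were 488 longer and 308 shorter. Leaving out replicate 1 gave 982 longer and 473 shorter in the other 2 pairs. Leaving out replicate 2 gave 3458 and 698, and leaving out replicate 3 gave 1325 and 114, in both cases over more regions and 2 pairs. Leaving out a single library, which also drops its pair, gave 454 or 466 shorter regions without knockdown or scrambled replicate 1. It gave 1723 or 2000 longer and 190 or 121 shorter without that of replicate 2, and 110 or 107 shorter without that of replicate 3. The ratios of different pairs were only weakly related across the 2759 regions (Pearson's r 0.11 for replicates 1 and 2, 0.09 for 1 and 3, and 0.21 for 2 and 3). Of regions that differed in both pairs, 56.8%, 64.8% and 61.5% differed in the same direction. Regions are not replicates and no test was made.

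The 10 regions with the largest lengthening in every pair, ranked by the smallest of their 3 ratios, are a description, because the ratios chose them. The region in PRICKLE2, a planar cell polarity gene, spans chr3:64084614-64133224 (minus strand, 1707 nt of exon). Knockdown replicates 1, 2 and 3 covered 1618, 931 and 1588 nt of it, and the scrambled ones 571, 150 and 661 nt. Every knockdown value lay above every scrambled value. In LZTS1, which encodes a leucine zipper protein described as a tumour suppressor, the region at chr8:20106285-20110982 (minus strand) was covered over 1982, 1443 and 2160 nt against 812, 152 and 1172 nt, again without overlap. In MPRIP, whose protein targets myosin phosphatase to actin, the region at chr17:17068152-17070251 (plus strand) had 1683, 422 and 1684 nt against 363, 151 and 812 nt. Here the groups overlapped through replicate 2, while each pair differed by at least 1.05 on the log2 scale. COL8A1, a collagen gene, had 777, 299 and 776 nt against 240, 60 and 359 nt at chr3:99513101-99513936 (plus strand).

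The other 6 of these regions lay in GNAO1 (a G protein alpha subunit), TECPR2 (an autophagy gene), PPP1R16A (a regulator of protein phosphatase 1), SDC3 (a cell-surface heparan sulfate proteoglycan), ZHX2 (a transcriptional repressor) and ARMCX2. Their lowest knockdown cover was 121 to 300 nt and their lowest scrambled cover 61 to 155 nt, all of these in replicate 2. GNAO1, TECPR2 and PPP1R16A had no base that all 6 lists covered. In GNAO1 the scrambled replicate 2 peak was 61 nt long, and the region's lowest score percentile over the 6 lists was 2.19. That lowest percentile was also 2.19 in SDC3, 6.08 in LZTS1 and 8.27 in COL8A1. Each of these regions thus had a call among the weakest of at least 1 list. In the remaining lengthened regions it ran from 12.2 (TECPR2) to 47.3 (ZHX2). ARMCX2 was listed with 2 nt and SDC3 with 31 nt in common. Taking the longest single peak in place of the sum moved the mean log2 ratio of SDC3 from 1.07 to 0.54 (also with a required overlap of 50 nt), of ZHX2 to 1.13 and of ARMCX2 to 1.38, all still above 0.

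The mirror set of 10 regions was shorter in the knockdown in all 3 pairs, and was likewise chosen by these lengths. Its differences were smaller, since summed peak length was over 1.5-fold shorter in every pair in 1 region and over 1.5-fold longer in every pair in 24. BOD1L1, a gene of replication fork protection, was that region, at chr4:13605379-13606608 (minus strand), with 481, 181 and 632 nt in the knockdown against 722, 872 and 991 nt. It was the only region whose 3 knockdown lengths all lay below the 3 scrambled ones. NAB1, a corepressor of EGR transcription factors, had 61, 120 and 270 nt against 120, 150 and 389 nt. GAS1, a Hedgehog co-receptor gene, had 389, 120 and 865 nt against 626, 150 and 1074 nt. ZBED3, a zinc finger gene of Wnt signalling, had 651, 296 and 622 nt against 1153, 357 and 1212 nt. The rest were MPHOSPH8 (a reader of histone H3 lysine methylation in the HUSH complex), NOP14-AS1 (an antisense RNA), TTC39C, SLC39A6 (a zinc transporter), ZSCAN26 and CASP8AP2 (with a role in histone gene expression). With the longest single peak in place of the sum, the mean log2 ratio went from -0.33 to -0.01 in MPHOSPH8, from -0.44 to -0.93 in GAS1 and from -1.04 to -0.40 in ZBED3. Counting overlapping bases once gave -0.69 in ZBED3. Whether strand entered the calling is not given in the sources used here, so a peak of NOP14-AS1 may hold RNA of its partner gene. The same limit holds for any region with a partner on the other strand. Regions of DNAJC11 (chr1:6694408-6695665, minus strand) and THAP3 (chr1:6694428-6695646, plus strand), for example, lie over nearly the same bases. They were counted as separate regions and genes, and the number of such cases was not determined.

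**Figure D4:**
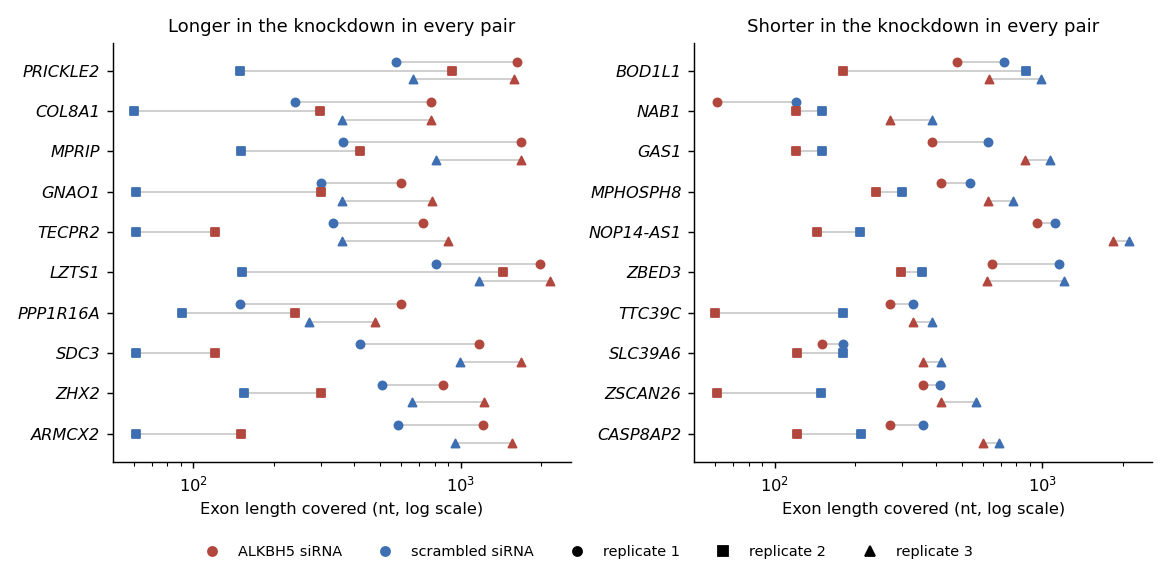
Exon length covered, in nt on a log axis, in the 10 regions that were longer (left) and the 10 that were shorter (right) in the knockdown in every same-numbered pair, chosen by these lengths. Red points are ALKBH5 siRNA and blue points scrambled siRNA, symbols give the replicate, and grey lines join the pair. In PRICKLE2 and LZTS1 every red point lies right of every blue point, and in BOD1L1 every red point lies left.

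Without regard to pairs, all 3 knockdown lengths lay above all 3 scrambled lengths in 9 of the 2759 regions (0.326%) and below them in 1 (0.0362%). The single region below was that of BOD1L1. Besides PRICKLE2 and LZTS1, the 9 were regions of TRAF7, NAA60, ZNF469, ZNF512B, PHAX, ZNF703 and GPSM1, of which all but ZNF469 fall outside the naming rule and were named after their values were seen. PHAX, which encodes the nuclear export adaptor of small nuclear RNAs, had 568, 479 and 597 nt against 419, 389 and 419 nt. TRAF7, an E3 ubiquitin ligase gene, had 448, 418 and 538 nt against 180, 90 and 389 nt.

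The widest regions were ranked by their shortest cover in any library. A region of AHNAK2, a giant scaffold protein gene, came first, with knockdown covers of 6333, 2732 and 8430 nt and scrambled covers of 3489, 2166 and 7145 nt. A region of TNKS1BP1, which encodes a tankyrase-binding protein, had 3269, 1682 and 3566 nt against 2641, 1681 and 3329 nt at chr11:57070247-57081298 (minus strand). Its 1471 nt common to all 6 lists, summed over its exon blocks, were the most of any region. DIDO1, a gene named for cell death induction, had 2577, 2071 and 2906 nt against 2191, 1293 and 2846 nt. The remaining 7 lay in ZC3H4 (a restrictor of non-coding transcription), MAST4 (a kinase), C15orf39, IRS1 (the insulin receptor adaptor), SMCR8 (a partner of C9orf72), ARFGAP1 (a regulator of Golgi transport) and a gene number with no symbol in the table. Their shortest covers ran from 1200 to 1322 nt, and all 7 were shortest in scrambled replicate 2.

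Ranked by the lowest score percentile over the 6 lists, the 5 leading regions were those of DIDO1 (99.9), SLC35E2B (98.9), SLC38A10 (98.7), TRIM56 (98.5) and ARFGAP1 (98.3). DIDO1 and ARFGAP1 were thus both among the widest and among the best scored in every list. SLC35E2B, a member of the nucleotide sugar transporter family, was compact by comparison, with 899, 749 and 959 nt against 689, 630 and 959 nt, and 600 nt common to all 6. TRIM56, an E3 ligase gene of innate immunity, had 2319, 1200 and 2483 nt against 2057, 750 and 2185 nt. No region could be named for identical blocks in all lists, since there were 0.

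The regions carried the numbers of 2382 genes, 22.6% of the 10536 genes with any peak. Of these, 2063 had a single such region, 264 had 2, 42 had 3, 9 had 4, 3 had 5 and 1 had 6. Another 28 regions had no gene number and 42 had more than 1. Of 2452 genes called in all 6 lists, 2364 had a region called in all 6, and 88 had peaks in every list but never in 1 common region. Protein-coding genes made up 2322 of the 2382, with 43 long non-coding RNAs. Among genes with a peak, 23.8% of protein-coding genes and 7.89% of long non-coding RNAs had such a region. In 1565 genes further regions fell short of all 6 lists.

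FAT1, a giant cadherin gene of the Hippo pathway, had 6 such regions among 12. The longest, at chr4:187628184-187644850 (minus strand, 2849 nt), was covered over 1713, 963 and 2849 nt in the knockdown and 992, 634 and 2581 nt in the scrambled libraries. Longer cover in every pair was seen in 1 of the 6, beside 31.7% of all members. ZNF469, linked to corneal structure, had 5 regions, of which 4 were longer in the knockdown in every pair, beside the same 31.7%. Its summed cover was 7852, 6270 and 9616 nt against 5104, 2977 and 7343 nt. The region at chr16:88495975-88497316 (plus strand) had 899, 781 and 839 nt against 601, 511 and 600 nt, without overlap of the groups.

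ANKRD11, a chromatin regulator gene, also had 5 regions, 2 of them longer in every pair, with summed covers of 6695, 3367 and 7022 nt against 4417, 2319 and 7112 nt. AHNAK2 was 1 of the 9 genes with 4 regions and had the most exon length in them. Of its regions 3 were longer in every pair, and the summed cover was 12403, 5420 and 16052 nt against 5517, 4073 and 13512 nt. Over all members, 31.7% were longer in every pair. Regions of 1 gene share their transcript and are not independent.

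Among genes the study is tied to, USP22 had a region called in all 6 libraries. USP22, a deubiquitinase of the SAGA complex, carried 1 peak in each list at chr17:20905691-20906289 (minus strand). Replicates 1, 2 and 3 covered 451, 181 and 481 nt of it after ALKBH5 siRNA, and 331, 91 and 599 nt after scrambled siRNA. It was longer in the knockdown in replicates 1 and 2 and shorter in replicate 3, and the groups overlapped. RNF40, an E3 ligase gene for histone H2B, had 17 peaks from 5 lists in 5 regions and none called in all 6. ALKBH5 itself had 2 peaks in 2 lists, and peak lists do not measure how far its RNA was reduced.

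The share of a gene list with a region called in all 6 libraries differed between the lists, and none was tested. Of the listed genes with a peak, it was 63.9% for histone methyltransferases and demethylases (23 of 36), 51.9% for chromatin remodelling ATPases and BAF subunits (14 of 27) and 22.6% over all genes with a peak. It was 50% for the Hippo pathway (11 of 22), 47.6% for the Notch pathway (10 of 21), 46.4% for receptor tyrosine kinase and MAPK signalling (13 of 28) and 30.0% for the Wnt pathway (9 of 30). Cytosolic ribosomal protein genes had a peak in 10 of 86 and a region called in all 6 in 1, RPL28. Respiratory chain genes gave 2 of 16 with a peak, mitochondrial ribosomal protein genes 8 of 43 (18.6%) and glycolysis genes 1 of 5. Expression levels are not in the peak lists.

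**Figure D5:**
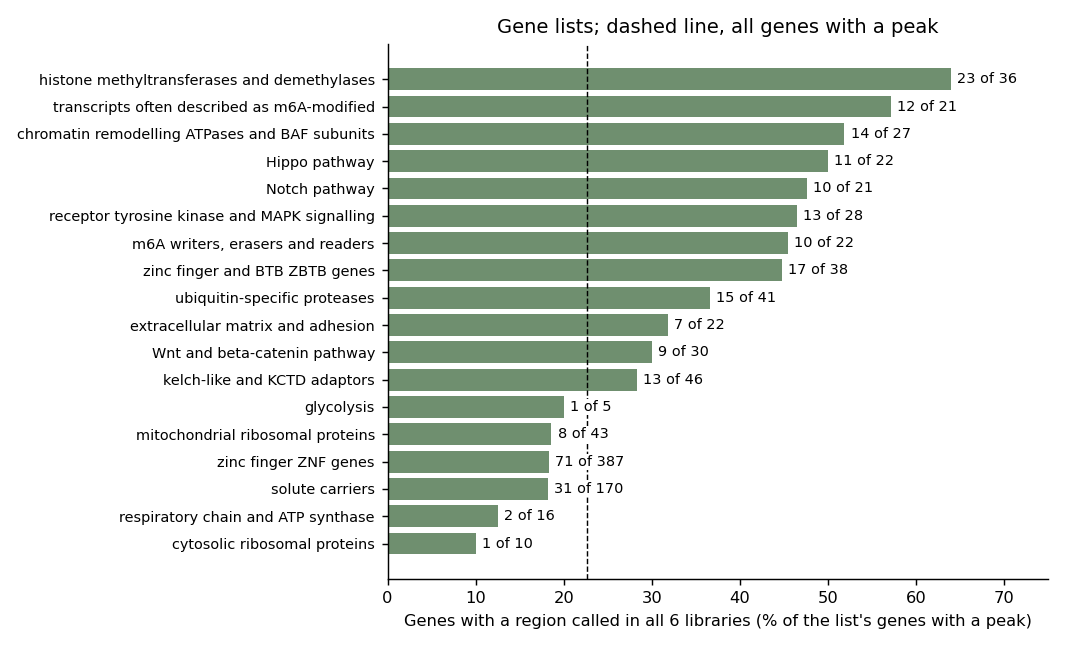
Share of the genes of 18 lists that had a region called in all 6 libraries, in percent of the list's genes with a peak in any library, with the counts beside each bar. The dashed line is the share over all genes with a peak, 22.6%. Histone methyltransferases and demethylases stand highest with 23 of 36 and cytosolic ribosomal proteins lowest with 1 of 10.

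Of the m6A writers, erasers and readers, 22 of 24 had a peak. Beside 22.6% of all genes with a peak, 10 of these (45.5%) had a region called in all 6. They were the writer subunits WTAP, VIRMA, ZC3H13, RBM15 and RBM15B, the separate methyltransferase METTL16, and the readers YTHDF1, YTHDF2, YTHDF3 and IGF2BP3. ZC3H13 had 3 such regions. RBM15 had 1 of 2480 nt at chr1:110882511-110888198 (plus strand), covered over 2185, 1323 and 2361 nt in the knockdown and 1628, 1178 and 2331 nt in the scrambled libraries. This region was longer in the knockdown in every pair, by 0.42, 0.17 and 0.02 on the log2 scale. Of the 13 regions in this list 4 were longer in every pair and 0 shorter, near the 31.7% and 1.88% of all members. Transcripts often described as m6A-modified had such a region in 12 of 21 (57.1%), beside the same 22.6%. The 12 included MYC, EGFR, FOXM1, KLF4, JUNB, CREBBP and EP300. The CREBBP region at chr16:3777485-3779464 (minus strand) was covered over 1651, 633 and 1920 nt against 904, 242 and 1921 nt.

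Among histone modifiers, NSD1, KMT2D and SETD2 each had 4 regions called in all 6 and KMT2C had 3. The median log2 ratio over the list's 37 regions was 0.28, 0 and 0.07 for replicates 1, 2 and 3, beside 0.46, 0.06 and 0.06 over all members. Of these 37 regions, 11 (29.7%) were longer in every pair and 2 shorter, beside 31.7% and 1.88% of all members. The remodelling genes CHD7 and CHD8 had 4 and 3 regions, and 4 of the 21 regions of that list (19.0%) were longer in every pair. The CHD7 region at chr8:61777649-61778638 (plus strand) had 900, 570 and 960 nt against 780, 540 and 930 nt, with 540 nt in common.

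In the Wnt list most regions were longer in the knockdown throughout. Of its 10 regions, 7 were longer in the knockdown in every pair and 0 shorter, beside 31.7% and 1.88% of all members, and their median log2 ratios were 0.50, 0.42 and 0.09. FZD7, a frizzled receptor gene, had 1227, 570 and 2359 nt against 687, 331 and 1853 nt at chr2:202899310-202901668 (plus strand). BCL9L, a beta-catenin cofactor gene, had 1502, 1294 and 1891 nt against 992, 753 and 1801 nt, and the co-receptor gene LRP6 had 599, 211 and 569 nt against 270, 151 and 420 nt. In all 3 genes every pair was longer in the knockdown, although the groups overlapped. The Notch list gave 4 of 15 regions longer in every pair and 1 shorter, and the Hippo list 5 of 18 longer and 0 shorter. The shorter Notch region, in MAML3, had 2220, 1111 and 2967 nt against 2310, 1352 and 3026 nt. In the receptor tyrosine kinase and MAPK list, 6 of 17 were longer in every pair and 1 shorter. A region of the growth factor receptor gene IGF1R in that list had 1021, 751 and 1500 nt against 392, 242 and 1171 nt.

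Mitochondrial ribosomal protein genes had short regions, with a median exon length of 445.5 nt, and 6 of their 8 (75%) were longer in the knockdown in every pair, beside 31.7% of all members. MRPS26 had 772, 239 and 566 nt against 505, 149 and 297 nt, and MRPL27 had 328, 209 and 387 nt against 268, 149 and 328 nt. MRPL16 did not follow, with 119 nt in knockdown replicate 2 against 149 nt. Ubiquitin-specific proteases had such a region in 15 of 41 genes (36.6%, beside 22.6% of all genes with a peak). Of their 16 regions 2 (12.5%) were longer in every pair, beside the same 31.7%. The region of USP42 had 1500, 1410 and 1560 nt against 1472, 1171 and 1620 nt. With lists of 8 to 37 regions these counts describe the lists and nothing was tested on them.

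The gene families can be read against the 22.6% of all genes with a peak. Zinc finger ZNF genes had a region called in all 6 in 71 of 387 (18.3%) and solute carriers in 31 of 170 (18.2%), both below that share. ZBTB genes gave 17 of 38 (44.7%), kelch-like and KCTD adaptors 13 of 46 (28.3%) and extracellular matrix and adhesion genes 7 of 22 (31.8%), all above it. In the matrix list, 4 of the 8 regions were longer in every pair and 0 shorter, beside 31.7% and 1.88% of all members. ITGA3, an integrin subunit gene, was longer in every pair, with 779, 540 and 1078 nt against 270, 270 and 899 nt. THBS1 had 690, 152 and 899 nt against 630, 331 and 839 nt, shorter in replicate 2. Of 31 solute carrier regions, 10 were longer in every pair and 2 shorter. The SLC25A29 region was shorter in every pair, with 1459, 448 and 1519 nt against 1489, 478 and 1548 nt. Of 10 bone or mesenchymal markers, COL1A1, RUNX2 and BGLAP had a peak and 0 had a region called in all 6. None of 4 epithelial and 4 blood markers had a peak, and a missing peak says nothing about expression.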

How the data were processed

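MeRIP-seq peaks of 6 immunoprecipitates were analysed, 3 of ALKBH5 siRNA and 3 of scrambled siRNA, grouped by their labels. The 6 inputs were not analysed here, and for 1 of them (scrambled replicate 3) the sample type in the labels names an immunoprecipitate. Per the submitters' processing notes, CASAVA 1.8.2, TopHat2, SAMtools and the hg19 build were used. Not given in the sources used here were the peak caller, its threshold and its use of the inputs. The deposited lists, 1 per library, gave position, strand, exon blocks, gene number and a score. The score the authors deposited was treated as a p-value, given its range of 0 to 0.011, since the file headers call it only a score, and was used only to rank peaks within a list. The lists hold no counts, so depth is unknown and no interval could be given.

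Lines of a list at the same position were merged (115 of 81380 lines, leaving 81265 peaks). Length was the summed block length of a library's peaks in a region for the tests and for the counts of longer and shorter regions. Lengths printed for a region count a base once, because 289 regions had overlapping peaks within a list. Coordinates are hg19, counted from 1. Gene numbers got symbols from a RefSeq table (GRCh38.p14), used for names only, which matched 10500 of 10536 numbers. Computations used Python 3.11.15, NumPy 2.4.6 and SciPy 1.17.1, and the joining and the tests were checked on simulated data.

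Group means of library values were compared by exact permutation, two-sided. Same-numbered libraries are pairs, because per the labels' protocols a number stands for 1 kind of RNA and 1 antibody. Deviations of log2 length from the group means correlated across regions at 0.33, 0.47 and 0.54 for replicates 1, 2 and 3. The paired alternative was an exact sign-flip test.

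The regions, gene lists and alternatives were chosen with earlier results of these data known. Named were ALKBH5, USP22 and RNF40, the 5 genes with most regions, the 10 widest regions, the 10 longer and 10 shorter in every pair by their smallest change, the 5 best scored, and up to 4 genes per list with most regions, of which examples are given. One gene that the rule names is not reported here.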

Additional observations from a re-analysis of the deposited data

How the results depend on the processing

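The lists hold no reads, so whether more reads would lengthen peaks or add calls cannot be told here. With 3 pairs, a test of 1 region could not reach 0.05. The differences between the siRNA groups in mean log2 length, covered length and peak number had p-values from 0.4 to 1 under every alternative without pairing. With the replicate block the mean differences were 0.25 (log2), 294 kb and -256 peaks, with exact sign-flip p of 0.25, 0.25 and 0.5. This test cannot give less than 0.25 with 3 pairs, so pairing could not have changed a call. The mean differences kept their direction under the alternatives that used all 6 libraries. Leaving out libraries or pairs moved them from -0.21 to 0.81 (log2), from -151 to 1003 kb and from -578 to 44.3 peaks. Without knockdown replicate 3 they turned to -0.09, -84.3 kb and 5 peaks, without scrambled replicate 2 the first and second turned to -0.21 and -151 kb, and without scrambled replicate 1 the peak difference turned to 44.3; the cause was not tested.

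The counts of regions, genes, longer regions and shorter regions were 1317, 1204, 452 and 12 with the best-scored 50% of each list, and 1661, 1515, 545 and 30 with all lists cut by score to 5670 peaks. They were 1088, 1022, 285 and 17 with exactly 1 peak from each list, where the difference in peak number is 0 by construction, and 1566, 1422, 471 and 33 with 1-block peaks. Centring the ratios gave 488 longer and 308 shorter regions. Leaving out libraries or pairs gave 2765 to 8193 regions, 2355 to 5959 genes, 943 to 3458 longer and 107 to 698 shorter regions, the highest in each case without replicate 2. Requiring an overlap of 50 nt, standard chromosomes, a base common to all lists, or the longest single peak, and, as chosen after seeing the data, counting overlapping bases once, each kept these counts within 1.5-fold where they applied. None of the 20 regions named for their ratios changed direction, and 6 of 60 values moved by more than the spread between pairs.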
